A study of Homo sapiens with 59 samples.

Results

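The genes described here are the nuclear-encoded subunits of respiratory complex I, chosen by name: 36 gene symbols, all beginning with NDUF, were matched through their Ensembl identifiers to the count table of A549 cells. All 36 were found among the 60675 genes of the table, and all 36 passed the filter on low counts that left 18568 genes for testing. The rule itself uses names and no measured value. The lowest value of any subunit in any library was 261 expected counts, so that detection limited none of them.

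Complex I, NADH:ubiquinone oxidoreductase, takes electrons from NADH, passes them along flavin and iron-sulfur centres to ubiquinone, and pumps protons across the inner mitochondrial membrane. Its N module oxidises NADH, its Q module reduces ubiquinone, and its membrane arm, with a proximal and a distal part, holds the proton channels, whose central subunits are encoded in mitochondrial DNA. A few nuclear-encoded subunits carry the redox centres and are called core subunits, and the rest are accessory subunits that the enzyme needs for assembly and stability. A549 is a human lung carcinoma line that grows as an epithelial sheet.

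A549 cells were exposed for 24 h to 1 of 8 herbal preparations, each extracted in 70% ethanol and given at 3 doses, or to DMSO vehicle, and messenger RNA was sequenced in bulk as 100-base read pairs from a stranded library kit. The doses, called low, medium and high below, were 4.4, 22 and 110 µg/mL for Coptidis Rhizoma, 7.6, 38 and 190 µg/mL for Bupleuri Radix, and 20, 100 and 500 µg/mL for the others. Coptidis Rhizoma, Zizyphi Fructus and the formula Yijung-tang had 2 libraries a dose, and Bupleuri Radix, Citri Unshius Pericarpium and Cimicifugae Rhizoma had 3. Aconiti Lateralis Radix Preparata had 3 libraries at its low dose, 2 at its medium and 3 at its high dose. The formula Banhasasim-tang had 1 library a dose and so no replicate check, and the vehicle had 3 libraries. The vehicle is given as 0.1% DMSO in the sample labels and as 2% in the text on the series. The labels do not say whether libraries of 1 group came from separate cultures, so p-values measure the spread between these libraries, which may be technical.

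The 59 libraries held between 17214755 and 39751161 expected counts. Levels are given in CPM, which is expected counts scaled to a common library size. Epithelial keratins were abundant in all libraries, KRT8 at 1960 to 9090 CPM and KRT18 at 1580 to 5220 CPM. Other epithelial markers were lower, with KRT19 at 17.3 to 83.4, CDH1 at 5.22 to 37.6 and EPCAM at 2.41 to 9.32 CPM. Some markers of other cell types were near 0, with CD3E at 0, PTPRC at most 0.0488 CPM and PECAM1 at most 0.137 CPM. Others were not, with the leukocyte marker CD68 at 2.47 to 30.4 CPM and the fibroblast markers COL1A1 at 4.23 to 74.8 and COL3A1 at 0.569 to 2.84 CPM. The library codes place the vehicle in a set of its own and the extracts in pairs, namely Coptidis with Zizyphi, Citri with Cimicifugae, Bupleuri with Aconiti, and Yijung-tang with Banhasasim-tang. The labels do not say what these sets stand for. A difference between an extract and the vehicle therefore cannot be told apart from a difference between library sets, whereas high against low dose and the 3 comparisons between extracts of 1 set do not use the vehicle. All 21 comparisons with vehicle share the same 3 vehicle libraries.

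In the vehicle libraries the subunits ranged from 10.4 to 181.7 CPM per kilobase. The common size is set by trimmed-mean (TMM) scaling, and levels of different genes are compared only per kilobase of each gene's median coding transcript. In the N module, NDUFS1, which carries iron-sulfur clusters, stood at 126.3 ± 4.37 CPM or 53.0 CPM per kilobase, and NDUFV3, a small accessory subunit beside the flavin site, at 32.5 ± 1.08 CPM or 10.4 CPM per kilobase (SD, n = 3). In the Q module, NDUFA9, an accessory subunit near the ubiquinone site, had 145.3 CPM per kilobase, and NDUFA7 had 32.0 CPM per kilobase. In the proximal membrane arm NDUFC2 had 181.7 CPM per kilobase, the highest of all 36, and NDUFC1 had 39.1. In the distal membrane arm NDUFB9 had 148.1 CPM per kilobase and NDUFB7 had 59.2. These pairs were chosen by the highest and lowest CPM of each module and are not always its ends per kilobase. Per kilobase NDUFV1 was highest in the N module at 145.4, and NDUFB10 in the distal arm at 164.4. The lowest were NDUFS7 in the Q module at 29.7, NDUFA11 in the proximal arm at 25.6 and NDUFB5 in the distal arm at 47.5. NDUFAB1, the mitochondrial acyl carrier protein that is also bound to complex I, had 60.4 ± 0.636 CPM or 97.6 CPM per kilobase. The order of the 36 levels was nearly that of the vehicle in 55 libraries, with Spearman's rho between 0.937 and 0.994 across genes, which share each library's scaling. In 4 libraries it was between 0.577 and 0.948.

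The 4 that stood apart from the other libraries of their own groups are replicate 2 of Cimicifugae medium, replicate 2 of Cimicifugae low, replicate 3 of Citri high and replicate 3 of Citri medium. Their summed subunit level was 3048 to 3957 CPM, whereas the other 55 libraries had 1922 to 3022 CPM. The number of subunits above the other libraries of their own group was 35, 34, 27 and 34 of 36, in the same order of libraries, with median log2 ratios of 0.615, 0.811, 0.541 and 0.611. In the last 3 of these libraries the shift followed the base composition of the transcript, with Spearman's rho of 0.814, 0.819 and 0.835 between the log2 ratio and the G+C share across the 36 subunits, against 0.461, 0.510 and 0.507 across 14009 protein-coding genes. In the same 3 libraries the rho with transcript length was -0.0985, 0.0142 and -0.0342 across the subunits, but -0.414, -0.223 and -0.372 across the coding genes. In Cimicifugae medium replicate 2 the rho with G+C share was 0.145 across the subunits and 0.226 across the coding genes. The rho with transcript length there was -0.383 across the subunits and -0.445 across the coding genes. The 36 subunits have short transcripts, with a median of 709 bases against 1851 bases over the coding genes, and the same median G+C share of 50.6%. In those 3 libraries NDUFB7 and NDUFA13 lay above the rest, by up to 2.25 on the log2 scale for NDUFB7 in Citri high replicate 3, while NDUFB4 stood at -1.25 in that same library. A further library, Citri medium replicate 2, had 3022 CPM summed and 35 of 36 subunits above its group's other library, with a median log2 ratio of 0.579. Counts of called subunits are therefore given below for all 59 libraries and without the 4, and a value of a single gene names its fit.

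**Figure D1:**
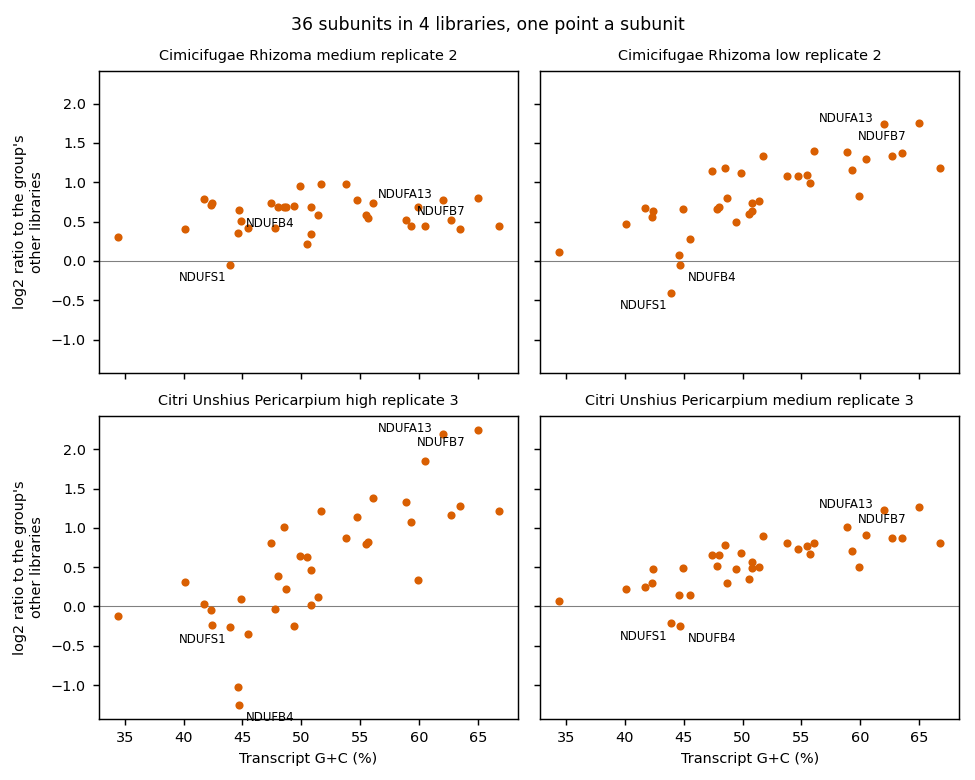
Log2 ratio of each of the 36 subunits to the other libraries of the same group (vertical axis) against the G+C share of its transcript in percent (horizontal axis), in the 4 libraries that stood apart; each point is 1 subunit. In the 3 libraries other than Cimicifugae medium replicate 2 the points climb with G+C share, NDUFB7 and NDUFA13 at the upper right and NDUFS1 and NDUFB4 below 0.

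The summed level of the 36 subunits differed little between most groups. The vehicle libraries had 2216, 2280 and 2409 CPM, a mean of 2301 ± 98.5 CPM (SD, n = 3). Without the 4 libraries, the mean of the groups with 2 or more libraries ran from 88.3% of the vehicle mean in Coptidis high to 112% in Citri medium. With all 59, Citri medium stood at 121%, Citri high at 126% and Cimicifugae low at 116% of vehicle, values that include the 4 libraries. In these bulk libraries fewer cells and less RNA per cell cannot be told apart, and a CPM level is a share of the library's RNA.

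**Figure D2:**
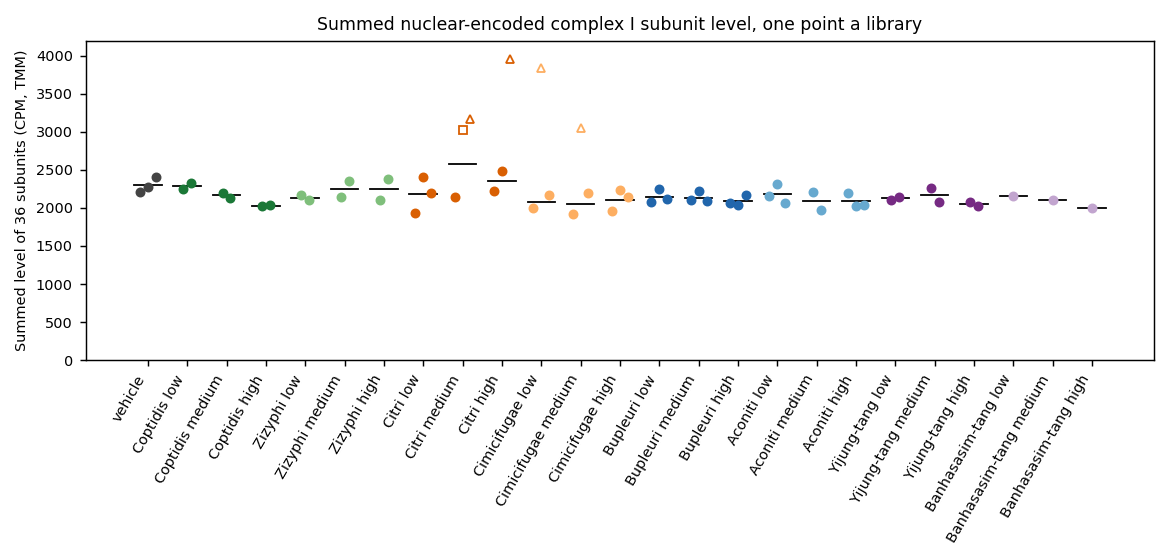
Summed level of the 36 subunits in CPM (vertical axis, from 0) in each library, by extract and dose with the vehicle at the left; open triangles are the 4 libraries that stood apart, the open square is Citri medium replicate 2, and lines are group means without the 4. Coptidis is lowest at its high dose, at 2024 and 2040 CPM, and the triangles lie between 3048 and 3957 CPM.

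A gene is called here when its adjusted p in edgeR's quasi-likelihood test, with Benjamini-Hochberg adjustment over all genes tested in that comparison, is below 0.05. With all 59 libraries in 1 model, whose groups share an estimate of spread for each gene, 13 calls fell on the subunits in 4 of 31 comparisons. Leaving out the 4 gave 48 calls in 11 comparisons, all of them lower in the extract or at the higher dose. The fold changes of groups that lost no library moved little between these fits, as for Coptidis high, where the median over the subunits was -0.18 with all 59 and -0.16 without the 4. Where the fit held only the extracts compared, with the vehicle where it was compared, there were 139 calls in 14 comparisons, 133 of them lower. Each share of all genes called, printed below, is the background against which the subunit counts are to be read. Each such share counts genes called lower and genes called higher together.

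Coptidis Rhizoma, the rhizome rich in the alkaloid berberine, had subunits lower at its high dose, and the count called depended on which other libraries were fitted beside it. The summed subunit level was 2216 to 2409 CPM in vehicle libraries, 2253 and 2328 CPM at the low dose, 2132 and 2197 CPM at the medium dose, and 2024 and 2040 CPM at the high dose, or 99.5%, 94.1% and 88.3% of the vehicle mean at the 3 doses. Both high-dose libraries lay below all others of this extract and below all vehicle libraries. By group mean, 27 of the 36 subunits were lower at the medium than at the low dose and lower again at the high dose, an order that 27.6% of all genes had. In the high-dose libraries, 27 subunits lay wholly below the vehicle libraries and 1, NDUFA10, wholly above, where 29.5% of all genes lay wholly below vehicle. Against the low dose 28 subunits lay wholly below (31.4% of all genes), and against Zizyphi high 21 did (32.7% of all genes). Other extracts also had subunits wholly below the vehicle libraries, 23 at Yijung-tang high and 18 each at Bupleuri high and Aconiti medium. Zizyphi high had 6 and Citri high had 3 with all 59 libraries. The share of all genes was not taken for these groups, and they hold 2 or 3 libraries.

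No subunit was called at any dose of Coptidis against vehicle with all 59 libraries, where 0.447%, 3.27% and 12.6% of all genes were called at the low, medium and high dose. At unadjusted p below 0.05 the counts were 0, 1 and 4 subunits. DESeq2 also called none of the 36 in these comparisons. The median log2 fold change of the subunits was -0.01, -0.09 and -0.18, against medians over all genes within 0.01 of 0. Against the low dose, the high dose had a median of -0.17 and no called subunit, with 2.31% of all genes called and 1 subunit at unadjusted p below 0.05.

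At Coptidis high 10 subunits fell against vehicle once the 4 libraries, none of them Coptidis or vehicle, were left out, none rose, and 27.9% of all genes were called. At the low and medium doses 0 subunits were called, with 0 and 3 at unadjusted p below 0.05, and 3.52% and 12.4% of all genes were called. The 10 are NDUFA2, NDUFS6 and NDUFV2 of the N module, NDUFS3 of the Q module, NDUFAB1, NDUFA8 and NDUFC2 of the proximal arm, and NDUFB3, NDUFB4 and NDUFB6 of the distal arm. A share of 10 in 36 is near the 27.9% of all genes, which counts both directions. That share holds 2526 genes lower and 2590 higher of 18339 tested, and all 10 subunits were lower. The 10 were set against the same vehicle libraries, so their common direction is not separate support for each. High against low dose, in which the vehicle plays no part, 2 subunits fell, NDUFB4 and NDUFS3, and 9.05% of all genes were called.

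NDUFB4 is an accessory subunit of the distal membrane arm, encoded on the plus strand of chromosome 3 at chr3:120596309-120602500 (GENCODE 29, GRCh38). It had 85.2, 85.2 and 94.6 CPM in vehicle libraries, 91.9 and 91.2 CPM at Coptidis low, 81.3 and 77.4 CPM at medium, and 63.8 and 65.8 CPM at high. The 2 high-dose libraries lay below every other library of this extract and of the vehicle, and the low-dose libraries lay inside the vehicle range. High against low, NDUFB4 fell by 0.48 on the log2 scale without the 4 libraries (SE 0.13, edgeR adjusted p = 0.0119), and the fold change with all 59 was -0.50 with an adjusted p of 0.368. NDUFB4 has 12 named pseudogene copies, which together averaged 0.168 CPM in vehicle libraries.

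NDUFS3 is a core subunit of the Q module, encoded on the plus strand at chr11:47565336-47584562 (GENCODE 29, GRCh38). It had 63.0, 63.5 and 70.5 CPM in vehicle libraries, 62.0 and 67.4 CPM at Coptidis low, 61.6 and 59.7 CPM at medium, and 52.2 and 52.6 CPM at high. Again only the high-dose libraries were clear of the vehicle range by more than the spread within either group. High against low, NDUFS3 fell by 0.29 without the 4 libraries (SE 0.093, edgeR adjusted p = 0.0423), against -0.30 and an adjusted p of 0.756 with all 59. NDUFS3 shares its strand and part of its span with PTPMT1, a mitochondrial phosphatase gene, and more than 50% of its values carried decimals, so that reads could be split between them. PTPMT1 itself had 33.8 and 33.1 CPM at Coptidis high, against 32.8 and 31.5 CPM at Coptidis low. The sum of both genes was 85.9 and 85.7 CPM at high, against 94.8 and 98.9 CPM at low, so that the summed level also separated the doses.

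The promoters of NDUFB4 and NDUFS3 are shown because these 2 fell between doses, and that of NDUFAB1 because its levels are followed across extracts below. Each line gives the 200 bases that lie 250 to 51 bases before the RefSeq start (GRCh38.p14), 5′ to 3′ on the gene's strand, at chr3:120596086-120596285 (plus) for NDUFB4, chr11:47578824-47579023 (plus) for NDUFS3 and chr16:23596367-23596566 (minus) for NDUFAB1. Capitals mark matches to GCGC, then A and any base, then GCGC again, the site letters of nuclear respiratory factor 1 (NRF1), or to CCGGAAG, a core of ETS-family sites, on either strand.
NDUFB4: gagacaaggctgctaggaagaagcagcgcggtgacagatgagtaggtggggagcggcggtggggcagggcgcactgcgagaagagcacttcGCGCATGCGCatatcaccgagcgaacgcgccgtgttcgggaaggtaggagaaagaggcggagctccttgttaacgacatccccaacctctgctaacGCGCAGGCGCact
NDUFS3: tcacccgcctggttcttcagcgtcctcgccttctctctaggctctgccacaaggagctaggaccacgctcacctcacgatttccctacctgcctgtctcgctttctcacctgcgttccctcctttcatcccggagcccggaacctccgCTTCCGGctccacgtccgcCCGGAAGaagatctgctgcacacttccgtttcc
NDUFAB1: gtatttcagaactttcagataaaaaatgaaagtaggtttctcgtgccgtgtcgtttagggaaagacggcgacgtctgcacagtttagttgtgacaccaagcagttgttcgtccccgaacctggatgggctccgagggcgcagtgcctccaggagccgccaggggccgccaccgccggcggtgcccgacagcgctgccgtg
NDUFB4 held 2 NRF1 matches, beginning 159 and 63 bases before the start, and NDUFS3 held 2 ETS matches, at 102 and 83 bases, while NDUFAB1 held neither. Over the 250 bases before the start, 5 of the 32 subunits with a RefSeq promoter held the NRF1 letters (15.6%), against 5.53% of 27305 promoters. The ETS letters were in 5 of the 32 (15.6%), against 8.82% of the promoters, and no match of one motif overlapped the other in the 3 sequences shown. The NDUFS3 window lies inside the span that GENCODE gives the gene, whose annotation begins further upstream. A match is a string of letters in this window and not a measured binding site.

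NRF1 itself, the transcription factor known for controlling nuclear genes of respiration, was at 19.6 ± 0.453 CPM in vehicle (SD, n = 3), 19.1 ± 1.35 CPM at Coptidis low, 16.1 ± 1.04 CPM at medium and 15.2 ± 0.0699 CPM at high (SD, n = 2 each). In the fit without the 4 libraries NRF1 fell by 0.32 on the log2 scale at high against low dose (SE 0.094, edgeR adjusted p = 0.0257). The value with all 59 was -0.33 with an adjusted p of 0.1. Without the 4 libraries 9.05% of all genes were called in that comparison. Whether the level of NRF1 bears on that of the subunits was not tested.

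The other 8 subunits that fell against vehicle without the 4 libraries were not called between doses in that fit. NDUFA2, an accessory subunit of the N module, had 23.2 and 25.7 CPM at Coptidis high, against 38.3, 37.4 and 39.9 CPM in vehicle libraries. Its groups did not overlap and its log2 fold change was -0.64 (SE 0.173, edgeR adjusted p = 0.00448 without the 4 libraries and 0.202 with all 59). At the low dose it was already at 33.3 and 32.7 CPM, below all 3 vehicle libraries, and Zizyphi low, of the same library set, had 30.4 and 28.5 CPM. NDUFB3, a small subunit of the distal arm, had 31.5 and 28.7 CPM at Coptidis high, against 38.3, 42.1 and 45.4 CPM in vehicle libraries, a log2 fold change of -0.46 (SE 0.139, edgeR adjusted p = 0.011 without the 4 libraries and 0.0768 with all 59). NDUFV2, which carries an iron-sulfur cluster beside the flavin site, fell by 0.36, and NDUFA8, of the proximal arm, fell by 0.26, the smallest of the 10. By contrast NDUFV1, which holds the flavin and is the site of NADH oxidation, averaged 103.3 ± 1.10 CPM at Coptidis high and 102.2 ± 3.67 CPM in vehicle (SD, n = 2 and 3), a log2 fold change of 0.03 that was not called.

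Fitted without the other extracts, Coptidis gave larger counts of called subunits, nearly all of them lower. At the high dose 20 subunits fell and 1, NDUFA13, rose by 0.17 against vehicle. There 44.0% of all genes were called, 3514 genes lower and 3643 higher of 16259 tested. The low dose had 2 higher and 2 lower (13.9% of all genes) and the medium dose 1 higher and 8 lower (26.7%). Between high and low dose, 20 subunits fell and none rose, where 27.3% of all genes were called, 2252 genes lower and 2090 higher of 15890 tested. These 20 covered 4 of 8 N module subunits, 4 of 7 of the Q module, NDUFAB1, 5 of 9 of the proximal arm and 6 of 11 of the distal arm. NDUFB4 led them at -0.48 (edgeR adjusted p = 4.54e-07), and NDUFB1, a small distal-arm subunit, stood at -0.40. That fit held only the Coptidis libraries, 2 a dose, so its p-values rest on the spread within these pairs. With all 59 libraries the edgeR adjusted p of NDUFB4 was 0.368. NDUFA2, NDUFB3 and NDUFV2 were also among the 20. No module thus carried the difference alone.

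**Figure D3:**
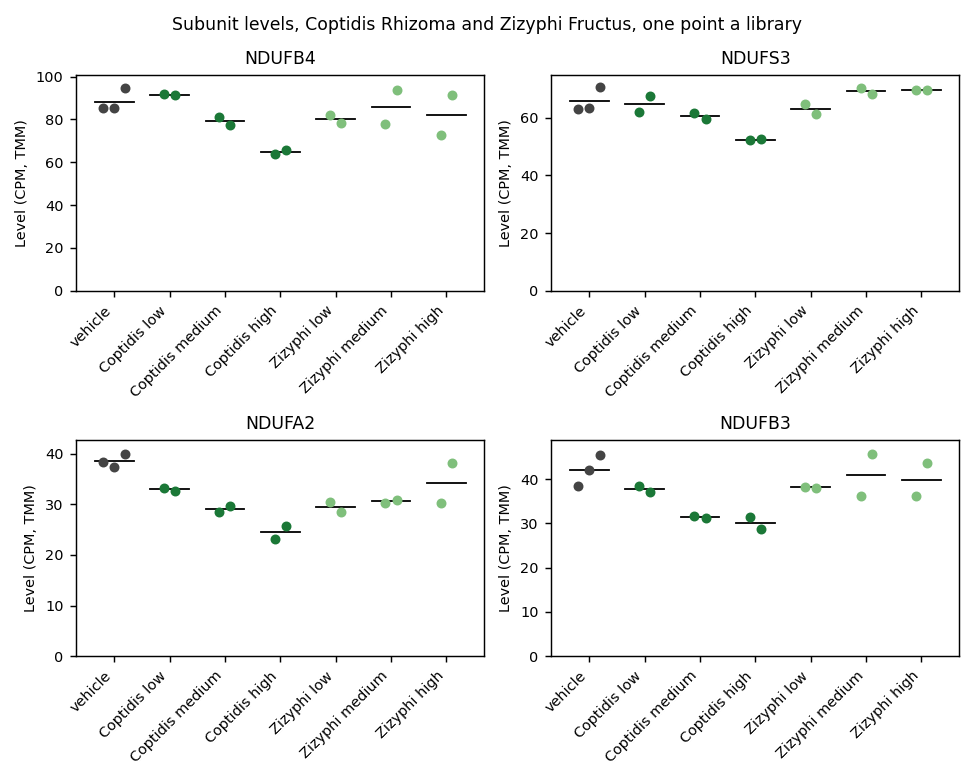
Levels in CPM (vertical axes, from 0) of NDUFB4, NDUFS3, NDUFA2 and NDUFB3 in each library of vehicle, Coptidis and Zizyphi, by dose from low to high; lines are group means. At Coptidis high NDUFB4 stands at 63.8 and 65.8 CPM and NDUFS3 at 52.2 and 52.6 CPM, below all other libraries plotted for that subunit.

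Zizyphi Fructus, the jujube fruit, shares a library set with Coptidis and had few genes called. Its summed subunit level was 92.9%, 97.7% and 97.5% of vehicle at the low, medium and high dose. With all 59 libraries the median subunit log2 fold change was -0.12, -0.05 and -0.03 at these doses. By fold change 35, 25 and 23 of the 36 subunits were lower than vehicle. No subunit was called at any dose against vehicle, where 0.0% of all genes were called at each dose with all 59 libraries (460, 497 and 439 genes at unadjusted p below 0.05), and DESeq2 called no subunit. Of the subunits, 0 passed unadjusted p below 0.05 at each dose. Once the 4 were left out 0.0%, 0.0164% and 0.0436% of all genes were called, and the subunits at unadjusted p below 0.05 numbered 2, 1 and 0. At high against low dose, the median subunit log2 difference was 0.08, with 0.0% of all genes called with all 59 libraries and 0.0% without the 4. NDUFS3 had 69.5 and 69.7 CPM at Zizyphi high, against 64.6 and 61.2 CPM at Zizyphi low, a difference that was not called.

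Coptidis high against Zizyphi high compares both extracts inside 1 library set, at 110 and 500 µg/mL, so that their doses differ. NDUFS3 had 52.2 and 52.6 CPM in Coptidis high and 69.5 and 69.7 CPM in Zizyphi high. It was lower by 0.39 on the log2 scale without the 4 libraries (SE 0.092, edgeR adjusted p = 0.00171), the only subunit called there, where 20.5% of all genes were called. In the fit of all 59 libraries 0 subunits and 8.12% of all genes were called, 2 subunits having an unadjusted p below 0.05. In the fit of these 2 extracts alone 15 subunits were lower in Coptidis and none higher, where 33.3% of all genes were called. NDUFA2 at -0.48 and NDUFB3 at -0.40 were among the 15.

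Citri Unshius Pericarpium, mandarin peel, was the one extract with subunits called higher in the fit of all 59 libraries, and those calls were lost without 1 library that stood apart. In the fits of only the compared extracts Citri had 0 called subunits. With all 59 libraries 2 subunits rose at Citri high against vehicle, where 4.42% of all genes were called, and 0 were called at the low and medium doses, where 0.00539% and 0.0% of all genes were called (0 and 2 subunits at unadjusted p below 0.05, and 2565 genes at the medium dose). NDUFA13, a proximal-arm subunit also known as GRIM-19, had 45.3, 49.6 and 216.7 CPM at Citri high, against 38.4, 39.7 and 45.1 CPM in vehicle libraries. Its log2 fold change was 1.33 (SE 0.366, edgeR adjusted p = 0.0377), and replicate 3 alone was far above vehicle. NDUFB7, of the distal arm, had 30.4, 39.5 and 165.7 CPM at Citri high, against 31.04, 28.9 and 34.3 CPM in vehicle libraries, with the lowest Citri library inside the vehicle range. Both genes lie on chromosome 19, NDUFA13 at chr19:19515736-19529054 (plus) and NDUFB7 at chr19:14566078-14572062 (minus), and both have G+C-rich transcripts.

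The same pattern held in the comparisons of Citri that do not use the vehicle. NDUFA13 at high against low dose stood at 1.36, NDUFB7 at 1.41 and NDUFV1 at 1.01, all called higher with all 59 libraries, where 3.54% of all genes were called. Citri high against Cimicifugae high, 7 subunits were higher, NDUFA11, NDUFA13, NDUFB7, NDUFB10, NDUFB11, NDUFS8 and NDUFV1, with log2 differences between 0.65 and 1.48, where 7.67% of all genes were called. Leaving out replicate 3 of Citri high ended all of these calls: the 2, 3 and 7 called subunits became 0, 0 and 0. Leaving out replicate 1 of Citri high gave 14, 14 and 18, and leaving out replicate 2 gave 9, 11 and 12. Without any 1 vehicle library the count against vehicle was 0, and without any 1 library of Citri low or of Cimicifugae high the other 2 counts were 0. At Citri medium, leaving out replicate 1 moved the count from 0 to 3.

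Without the 4 libraries, 0 subunits were called in any comparison of Citri. At the low, medium and high dose against vehicle 0.0545%, 2.81% and 1.45% of all genes were called, with 3, 5 and 2 subunits at unadjusted p below 0.05. At high against low dose 0.851% of all genes were called and 2 subunits had an unadjusted p below 0.05, and against Cimicifugae high 2.49% and 6. The median subunit log2 fold change was -0.07, 0.16 and 0.03 at the 3 doses against vehicle. The medium dose then rested on 2 libraries, of which replicate 2 had 3022 CPM summed, above all other libraries that were kept.

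Cimicifugae Rhizoma, a rhizome of the same library set, had a summed subunit level of 90.5%, 89.4% and 91.7% of vehicle at the low, medium and high dose without the 4 libraries, and of 116%, 104% and 91.7% with all 59. The median log2 fold change against vehicle was -0.15, -0.17 and -0.13 without the 4 and 0.18, 0.05 and -0.13 with all 59, so that the 4 libraries turned the direction at the low and medium doses. At high against low dose the median was 0.03 without the 4 and -0.31 with all 59. With all 59 libraries no subunit was called, where 0.0% (1263 genes at unadjusted p below 0.05), 0.0269% and 0.377% of all genes were called against vehicle and 0.221% at high against low dose. The subunits at unadjusted p below 0.05 then numbered 1, 2, 0 and 10 in these 4 comparisons. Without the 4, 5 subunits fell at the medium dose, NDUFAB1, NDUFB6, NDUFB2, NDUFA9 and NDUFB5, where 4.37% of all genes were called, and 1, NDUFAB1, fell at the high dose, where 3.72% were called. The medium dose then held 2 libraries. At the low dose 0 subunits and 0.0109% of all genes were called, with 11 subunits at unadjusted p below 0.05, and at high against low 0 subunits and 0.48% of all genes.

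Bupleuri Radix, the root known for saikosaponins, and Aconiti Lateralis Radix Preparata, processed aconite root, share a library set. The summed subunit level was 93.3%, 92.9% and 91.0% of vehicle at the 3 doses of Bupleuri and 94.6%, 90.8% and 90.8% at those of Aconiti. With all 59 libraries no subunit was called for Bupleuri, where 0.0% (1367 genes at unadjusted p below 0.05), 0.00539% and 3.36% of all genes were called against vehicle and 1.58% at high against low. There were 3, 4, 4 and 0 subunits at unadjusted p below 0.05. In the fit without the 4 libraries 2, 4 and 5 subunits fell at the low, medium and high dose, and none rose, where 2.94%, 3.32% and 14.3% of all genes were called. The 2 at the low dose are NDUFAB1 and NDUFA9, the medium dose adds NDUFB6 and NDUFB5, and the high dose adds NDUFA5, a Q module subunit, to these 4. At high against low dose 0 subunits were called among 5.56% of all genes, with 0 at unadjusted p below 0.05. In the fit of Bupleuri and vehicle alone, 8, 7 and 13 subunits were lower, and 1 was higher at the high dose, where 12.2%, 12.5% and 26.2% of all genes were called.

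Aconiti gave the one call that was lower with all 59 libraries. NDUFA5 had 42.8 and 39.6 CPM at Aconiti medium, against 48.0, 48.4 and 51.1 CPM in vehicle libraries, and the groups did not overlap. Its log2 fold change was -0.25 (SE 0.085, edgeR adjusted p = 0.032), in a comparison in which 17.5% of all genes were called. Each fit that left out 1 of these 5 libraries ended the call, with an adjusted p between 0.0575 and 0.351, while leaving out the 4 libraries gave 0.00502. No subunit was called at the low or high dose, where 0.0% (1214 genes at unadjusted p below 0.05) and 4.65% of all genes were called, or at high against low, where 3.29% were. There 0, 2 and 0 subunits had an unadjusted p below 0.05.

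Leaving out the 4, 6 subunits fell at Aconiti medium, where 32.8% of all genes were called, and 7 fell at Aconiti high, where 15.0% were called. The medium dose had NDUFA2, NDUFA5, NDUFA9, NDUFB5, NDUFB6 and NDUFV1, and the high dose had NDUFA9, NDUFA10, NDUFAB1, NDUFB5, NDUFB6, NDUFB10 and NDUFV1. NDUFB5 led the high dose by adjusted p, at 34.6, 30.7 and 33.9 CPM, against 40.3, 39.9 and 40.6 CPM in vehicle libraries, a log2 fold change of -0.28 (SE 0.059, edgeR adjusted p = 0.000724 without the 4 libraries and 0.105 with all 59). At the low dose 0 subunits were called, 2.15% of all genes were, and 8 subunits had an unadjusted p below 0.05; at high against low 0 subunits and 9.71% of all genes were called. In the fit of Aconiti and vehicle alone 1, 11 and 13 subunits were lower at the low, medium and high dose, and 1 was higher at the high dose, where 7.28%, 42.0% and 22.9% of all genes were called. Bupleuri high against Aconiti high, at 190 and 500 µg/mL, had a median subunit log2 difference of 0.0024 and 0 called subunits, where 1.33% of all genes were called with all 59 libraries and 5.22% without the 4, with 0 and 1 subunits at unadjusted p below 0.05.

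Yijung-tang had a summed subunit level of 92.5%, 94.4% and 89.4% of vehicle at the low, medium and high dose. With all 59 libraries no subunit was called, where 0.0% (743 genes at unadjusted p below 0.05), 0.0108% and 1.37% of all genes were called against vehicle and 0.431% at high against low, with 0, 0, 2 and 0 subunits at unadjusted p below 0.05. Without the 4 libraries 5 subunits fell at the high dose, NDUFS6, NDUFB6, NDUFAB1, NDUFA9 and NDUFB5, where 9.11% of all genes were called. NDUFS6, a zinc-binding subunit of the N module, changed most, by -0.39 on the log2 scale (SE 0.124, edgeR adjusted p = 0.0422, and 0.729 with all 59). At the low and medium doses 0 subunits were called, with 0.153% and 0.164% of all genes, and at high against low 0 among 2.25%, with 9, 5 and 0 subunits at unadjusted p below 0.05. In the fit of Yijung-tang and vehicle alone 2, 2 and 11 subunits were lower at the 3 doses, where 3.03%, 1.69% and 18.5% of all genes were called.

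NDUFAB1, NDUFB6, NDUFA9 and NDUFB5 can be followed across these extracts, with the reminder that every difference uses the same 3 vehicle libraries, of a library set of their own. NDUFAB1 was tight in the vehicle, at 60.5, 60.9 and 59.7 CPM. Bupleuri had 44.4, 46.7 and 48.4 CPM at low, 49.1, 46.0 and 40.8 CPM at medium, and 43.1, 42.7 and 50.9 CPM at high, every library below the vehicle. Without the 4 libraries NDUFAB1 fell by 0.38 on the log2 scale at low (edgeR adjusted p = 0.025), fell by 0.42 at medium (adjusted p = 0.0122) and fell by 0.40 at high (adjusted p = 0.00308). High against low dose of Bupleuri, at 190 and 7.6 µg/mL, the log2 difference of NDUFAB1 was -0.03 (SE 0.096, edgeR adjusted p = 0.977).

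Aconiti high had 49.8, 43.4 and 47.8 CPM of NDUFAB1, which fell by 0.36 against vehicle (SE 0.095, edgeR adjusted p = 0.00718), while Aconiti medium, at 58.3 and 53.8 CPM, was not called. Cimicifugae high had 44.6, 48.6 and 49.8 CPM and fell by 0.34 (SE 0.096, edgeR adjusted p = 0.0338). Yijung-tang high had 43.8 and 51.0 CPM and also fell by 0.34 (SE 0.108, edgeR adjusted p = 0.0379). All of these libraries were below the vehicle range. Between high and low dose, NDUFAB1 was at -0.01 in Cimicifugae, -0.03 in Aconiti and 0.01 in Yijung-tang, none called. None of these NDUFAB1 differences was called with all 59 libraries, with adjusted p between 0.364 and 0.930 for the comparisons of Cimicifugae medium and high, Bupleuri, Aconiti high and Yijung-tang high.

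NDUFB6, a distal-arm subunit, had 27.4, 27.5 and 33.4 CPM at Bupleuri high, against 39.5, 41.9 and 37.0 CPM in vehicle libraries, and fell by 0.42 on the log2 scale without the 4 libraries (SE 0.105, edgeR adjusted p = 0.00442, and 0.149 with all 59). NDUFA9 had 74.4, 75.4 and 77.3 CPM at Bupleuri medium, against 90.2, 93.8 and 95.8 CPM in vehicle libraries, and neither gene's groups overlapped. Between high and low doses NDUFB6 differed by -0.10 in Bupleuri, -0.04 in Aconiti, -0.03 in Cimicifugae and -0.08 in Yijung-tang, and NDUFA9 by 0.04, -0.11, -0.02 and -0.09 in the same order, none called. Differences from vehicle that are as large at the lowest dose as at the highest, as for NDUFAB1 in Bupleuri, cannot be told apart here from a difference between library sets.

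**Figure D4:**
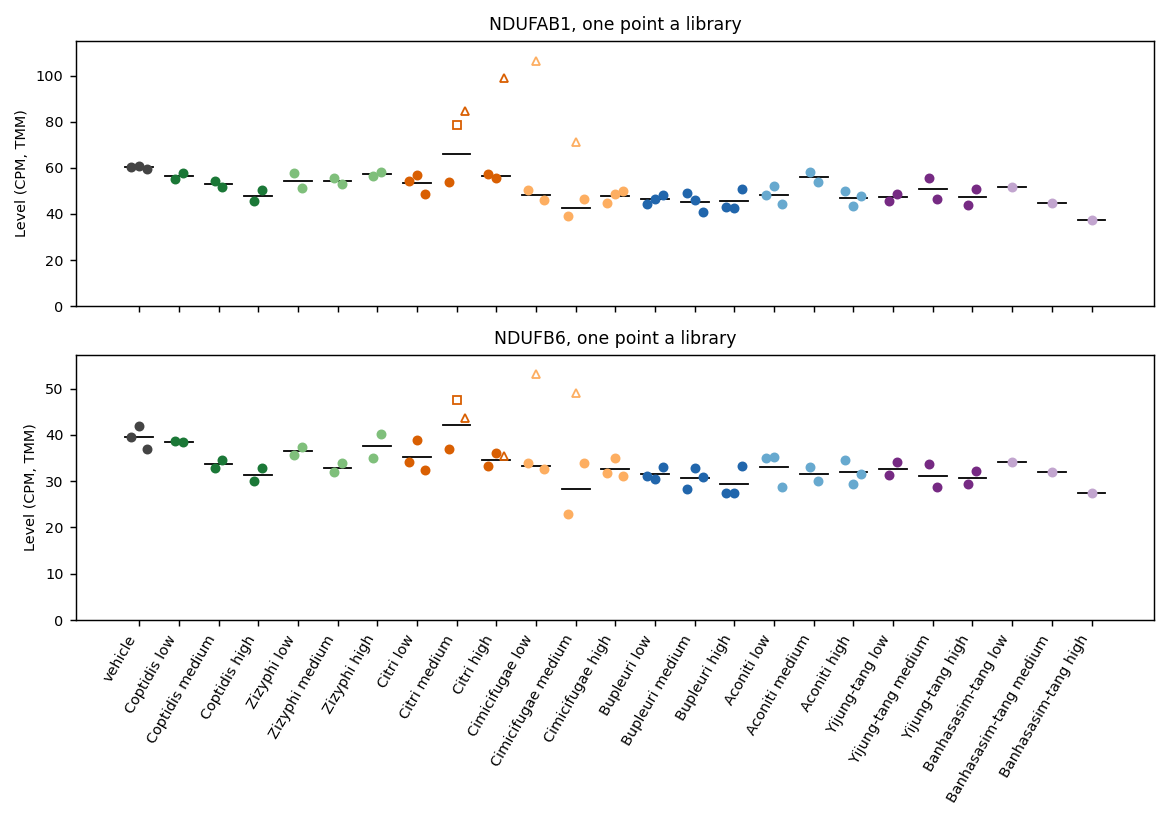
Levels in CPM (vertical axes, from 0) of NDUFAB1 and NDUFB6 in every library, by extract and dose with the vehicle at the left; open triangles are the 4 libraries that stood apart, the open square is Citri medium replicate 2, and lines are group means without the 4. Bupleuri libraries lie between 40.8 and 50.9 CPM of NDUFAB1 over all 3 doses, and the vehicle libraries between 59.7 and 60.9 CPM.

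Banhasasim-tang had 1 library a dose, so only its values are given. Its summed subunit level was 2152, 2103 and 1998 CPM at the low, medium and high dose, or 93.5%, 91.4% and 86.8% of the vehicle mean. Below every vehicle library were 22, 25 and 26 of the 36 subunits, where 30.9%, 32.1% and 37.1% of all genes were. Above every vehicle library were 3, 4 and 4 subunits, where 30.5%, 34.1% and 36.5% of all genes were. NDUFAB1 was at 51.8, 44.8 and 37.3 CPM and NDUFB6 at 34.2, 32.0 and 27.5 CPM. At the high dose NDUFA7, a Q module subunit, was highest relative to vehicle, at 23.6 CPM, against 19.2 ± 0.997 CPM in vehicle (SD, n = 3).

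**Figure D5:**
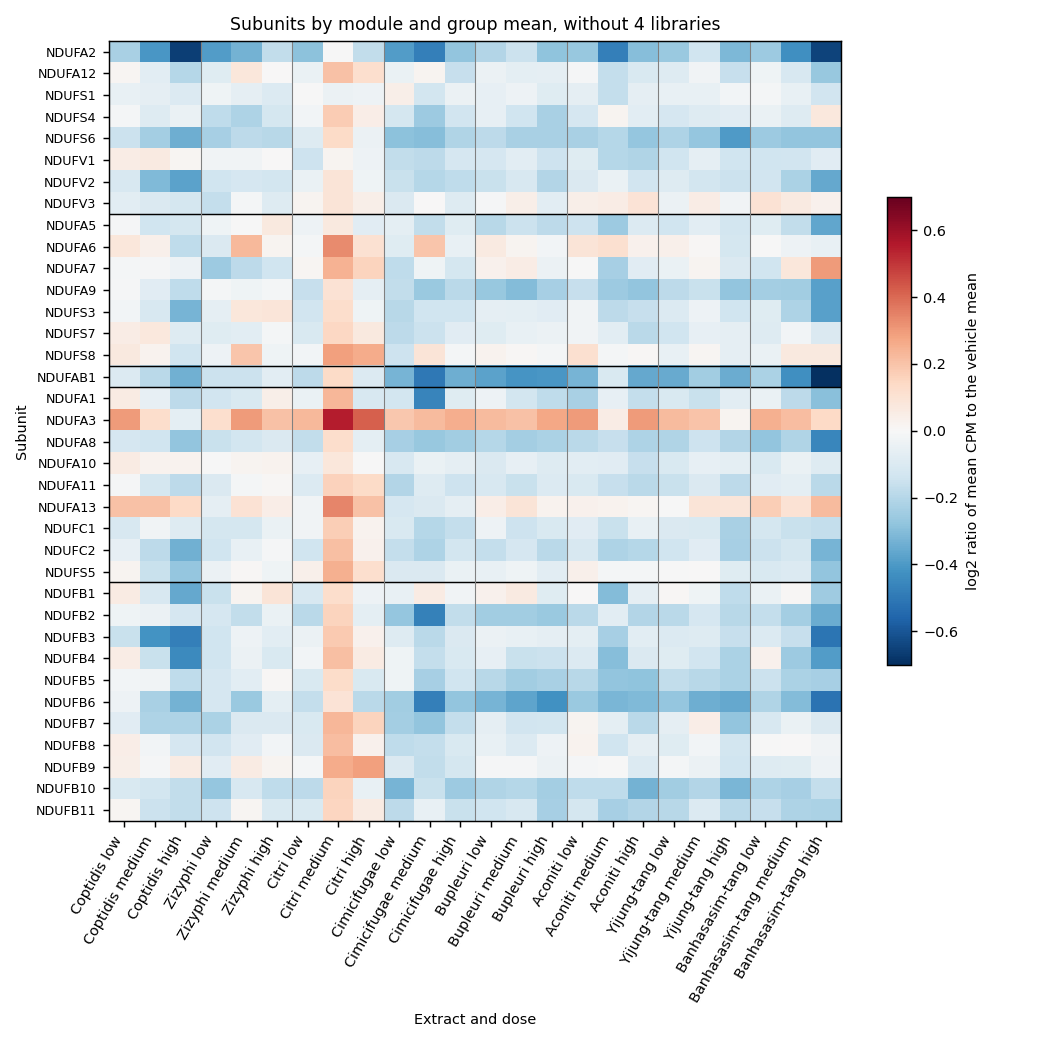
Log2 ratio of each group's mean level to the vehicle mean (colour; blue below and red above the vehicle) for the 36 subunits, in rows by module from the N module at the top to the distal membrane arm, and for each extract and dose in columns, without the 4 libraries. NDUFA2 is deep blue at Coptidis high, NDUFA3 is red at Citri medium, and the Coptidis columns deepen over the doses.

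In many groups most subunits lay on the same side of vehicle, but not all of them did. Without the 4 libraries, 32 of the 36 were lower than vehicle by fold change at Coptidis high and 35 at Cimicifugae high. That count was 34 at both Bupleuri and Yijung-tang high, 24 at Zizyphi high, 17 at Citri high and 1 at Citri medium. NDUFA3, a small proximal-arm subunit, was above vehicle without the 4 libraries by 0.30 in Coptidis low, Zizyphi medium and Aconiti high and by 0.22 in Bupleuri low on the log2 scale, none of them called in that fit. In the fits of only the compared extracts it was called higher at Coptidis low, Bupleuri high and Aconiti high. However, 93.2% of its values carried decimals, so that its reads may be shared. Its 5 named copies together averaged 0.013 CPM in vehicle libraries, against 41.2 CPM for NDUFA3. NDUFA2 was the lowest at all doses of Coptidis but the medium one, where NDUFB3 was at -0.41. Counts of NDUFA1, NDUFA3, NDUFA11, NDUFA13, NDUFB2, NDUFB8, NDUFB11, NDUFC2, NDUFS3, NDUFS7 and NDUFV2 carried decimals in more than 50% of values, the mark of reads divided between genes, and are uncertain to that extent.

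The other genes of the respiratory chain give the setting of the Coptidis result. Of the 7 mitochondrially encoded complex I subunits, 6 fell at Coptidis high against vehicle without the 4 libraries, MT-ND4 by 1.04 on the log2 scale (SE 0.257, edgeR adjusted p = 0.00204), and 1 fell with all 59, MT-ND5. The share of all genes called there, to be set beside this and the next lists, was 27.9% without the 4 and 12.6% with all 59. Their summed level was 20250 ± 2065 CPM in vehicle (SD, n = 3), 195% of that at Coptidis low, 84.7% at medium and 50.7% at high. High against low dose, 5 of the 7 fell, MT-ND5 by 3.39 (SE 0.26, edgeR adjusted p = 5.16e-12), and 4 fell with all 59 libraries. The mitochondrial transcripts were thus above vehicle in both libraries of the low dose, at 42680 and 36130 CPM, where the nuclear subunits summed to 99.5% of vehicle. Their sum also varied widely inside other groups, as at Citri low with 19190, 19600 and 34840 CPM.

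Of 18 assembly factors 3 fell at Coptidis high against vehicle without the 4 libraries, NDUFAF3, FOXRED1 and COA1. Of 4 complex II subunits 3 fell, SDHA most clearly, by 0.36 (SE 0.059, edgeR adjusted p = 6.98e-06, and 0.0127 with all 59), with SDHC and SDHD. Of 9 complex III subunits 1 fell, UQCRQ by 0.45, of 11 complex IV subunits 0 were called, and of 15 ATP synthase subunits 4 fell, ATP5MC3 by 0.52. Median log2 fold changes were -0.09, -0.28, -0.17, -0.13 and -0.21 in these 5 lists, against -0.16 for the 36 complex I subunits. Of 10 regulators MYC rose by 0.39, and NRF1 and PPARGC1A, the coactivator of mitochondrial biogenesis, fell. With all 59 libraries SDHA, ATP5MC3 and NRF1 were the ones called in these 6 lists. At high against low dose, where 9.05% of all genes were called without the 4, NDUFAF7 and NRF1 were the ones called, with none in complexes II to IV or ATP synthase.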

How the data were processed

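Messenger RNA of A549 cells was sequenced in 59 libraries of 25 groups. Per gene the authors deposited expected counts from RSEM 1.3.3 after STAR 2.7.3a alignment to GRCh38 (hg38), with FastQC 0.11.9 and Trim Galore 0.6.5, per the submitters' processing notes. Of these values 84.4% were whole. A further 210 columns of values for other samples in the same table were not used. Depth was 17214755 to 39751161 expected counts a library, and groups held 1 to 3 libraries.

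Columns were matched to libraries by the codes in the labels, and groups were taken from the labels. Expected counts were rounded and fitted in edgeR 4.0.16 (R 4.3.3) by its quasi-likelihood test with TMM scaling and 25 group means, after edgeR's expression filter (count 10, total 15) kept 18568 genes. This gave 34 residual degrees of freedom. The 31 comparisons were 21 doses set against vehicle, 7 high doses set against the low dose and 3 pairs of extracts of 1 library set, each with Benjamini-Hochberg adjustment over all genes tested. Banhasasim-tang entered the fit and had no test. Alternatives were DESeq2 1.42.0, RLE size factors, no low-count filter, fits without the 4 libraries that stood apart, with only the compared groups' extracts, with the replicate number as a block, and without each library in turn. A fit without 5 libraries was chosen after seeing the data.

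The 36 names, the other gene lists and the 4 libraries were chosen with earlier results of these data known. Genes are named where a comparison called them, where they had the lowest or highest fold change of the 36, or where the decimals of their counts mark shared reads. Symbols and positions were found for 57055 of the 60675 genes in GENCODE 29, and promoters come from RefSeq (GRCh38.p14). The edgeR script was tested on simulated data.

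Replicate numbers were shared in all 31 comparisons. Over the 17 with 3 pairs, 1 comparison, Citri high against low, had every correlation of same-numbered deviations above 0.1, and all correlations lay between -0.16 and 0.264.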

Additional observations from a re-analysis of the deposited data

Results flagged for a closer look

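Only subunits that edgeR called at high against low dose of an extract, with all 59 libraries or without the 4, were examined here. Among these, without the 4 libraries, the high-dose and low-dose libraries of 2 subunits separated in opposite ways in different extracts. Of these dose differences edgeR called 1, that of NDUFS3 in Coptidis. NDUFS3 at high over low dose had a fold of 1.11 in Zizyphi, with every high-dose library above every low-dose one, and of 0.81 in Coptidis, with every high-dose library below. In Citri that fold of NDUFS3 was 1.07, against 0.81 in Coptidis. NDUFA13 had a fold of 1.18 in Citri and 0.958 in Coptidis, with narrow gaps between its libraries. In Citri the lowest high-dose library had 45.31 CPM and the highest low-dose one 44.96 CPM. In Coptidis the highest high-dose library had 46.01 CPM and the lowest low-dose one 46.35 CPM. Of all genes 5.65% separated upward in Zizyphi and downward in Coptidis, and 2.09% upward in Citri and downward in Coptidis. These shares were taken over all genes, without the choice by call. Subunits outside that choice could separate in opposite ways too, as NDUFB5 and NDUFB1 did, upward in Zizyphi and downward in Coptidis. These differences between extracts were not tested, and the doses of the extracts differ.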

How the results depend on the processing

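Counts of called subunits depended on the libraries in the fit, the filter and the tool. Among the subunits and comparisons called with all 59 libraries or without the 4, the fold change kept its sign in all fits but 1: leaving out Cimicifugae medium replicate 1 turned NDUFA9, NDUFB2, NDUFB5 and NDUFB6 there positive, none of them called in that fit. At Cimicifugae low, medium and high against low the median over the subunits changed sign without the 4. DESeq2 called 4 subunits at Citri high against vehicle, 8 at Citri high against low and 11 at Citri high against Cimicifugae high. With no low-count filter the counts were 1 at Coptidis high, 4 at Citri medium, 12 at Citri high, 3 at Cimicifugae low and 0 at Aconiti medium against vehicle, 12 and 8 at high against low for Citri and Cimicifugae, and 15 at Citri against Cimicifugae high. Without the 4 libraries they were 10 at Coptidis high, 0 at Citri high, 5 and 1 at Cimicifugae medium and high, 2, 4 and 5 at Bupleuri, 6 and 7 at Aconiti medium and high and 5 at Yijung-tang high against vehicle, 2 at Coptidis and 0 at Citri high against low, 1 at Coptidis against Zizyphi and 0 at Citri against Cimicifugae. Without 5 libraries, a choice made after seeing the data, they were 2 and 11 at Coptidis medium and high, 0 at Citri high, 6 and 4 at Cimicifugae medium and high, 5, 5 and 9 at Bupleuri, 2, 9 and 8 at Aconiti, 1 and 6 at Yijung-tang low and high, 2 and 0 at high against low for Coptidis and Citri, 5 at Coptidis against Zizyphi and 1 at Citri against Cimicifugae. With only the compared extracts they were 4, 9 and 21 at Coptidis, 0 at Citri high, 8, 7 and 14 at Bupleuri, 1, 11 and 14 at Aconiti and 2, 2 and 11 at Yijung-tang, 20 and 0 at high against low for Coptidis and Citri, 15 at Coptidis against Zizyphi and 0 at Citri against Cimicifugae. The replicate block moved 3 counts by 1 each, to 1 at Coptidis high and 3 at Citri high against vehicle and to 4 at Citri high against low, and RLE size factors moved none. The summed level of Coptidis high was 2048 CPM with RLE scaling and 2054 CPM with scaling over all genes, against 2032 CPM. The cause of these differences was not tested.

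Leaving out 1 library at a time gave 0 to 0 called subunits in 27 comparisons, Aconiti medium against vehicle included. The range was 0 to 3 at Citri medium against vehicle, 0 to 14 at Citri high against vehicle, 0 to 14 at Citri high against low and 0 to 18 at Citri high against Cimicifugae high. Groups of 2 or 3 libraries and a vehicle in its own library set limit every comparison with vehicle.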
